A study of Mus musculus with 4 samples.

Results

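SNARE proteins are the membrane anchors that drive fusion of transport vesicles with their target membranes. The SNARE genes described here are the entries of the count table named Vamp, Stx or Snap with a number and at most 1 further letter, other than Snap91, together with Ykt6, Sec22b, Bet1, Gosr1, Gosr2, Vti1a, Vti1b, Use1 and Bnip1. This gave 36 genes of 55453 in the table. Poly(A) RNA of mouse germinal vesicle oocytes, which are arrested in meiotic prophase, was sequenced in 2 control libraries labelled WT and 2 libraries with Parp12 knocked down. All 4 samples came from ovary and were labelled as separated directly from it. The sources used here do not state the knockdown method or the strain and age of the mice. Parp12 encodes an ADP-ribosyltransferase that has been placed at the Golgi apparatus in other cells.

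A vesicle carries an R-SNARE, such as a VAMP protein, and its target membrane carries Q-SNAREs, the syntaxins and SNAP-25 relatives. They zip into a bundle of helices that pulls the membranes together, and the ATPase NSF takes the bundle apart again. Each step of the secretory and endosomal routes uses its own combination. In oocytes the best known fusion event is the release of cortical granules at fertilisation, which alters the egg coat.

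Levels are given as CPM, counts per 1000000 counts of the library, and, where genes are compared with each other, as CPM per kilobase of summed exon length. Library totals ran from 35805122 to 45230773 counts, and where a gene had 0 counts its level could still reach 3 counts, or 0.0663 to 0.0838 CPM depending on the library. This limit covers counting error only, since PCR copies are not independent molecules. The targeted gene, Parp12, had 14279 and 9419 counts in control and 32 and 86 counts in knockdown libraries. Its log2 fold change was -7.51 (edgeR quasi-likelihood test, adjusted p 1.27e-07). All 12 listed oocyte markers were measured, and their sum was 24555 and 25249.5 CPM in control and 25845 and 26499.7 CPM in knockdown libraries, with both knockdowns above both controls. Of these 12 markers edgeR called 0 and DESeq2 2. Over all tested genes edgeR called 0.0063%, and DESeq2 called 1.07% higher and 0.793% lower. At an unadjusted p under 0.05 edgeR listed 2 markers higher, Zp1 and Zp2, and 1 lower, Mos. The shares of all tested genes at that limit were 2.94% higher and 2.57% lower. Of 16 granulosa and cumulus markers 8 were at 0 in all 4 libraries, among them Amh, Foxl2 and Fst. The sum of the list ran from 155 to 166 CPM in control and from 135 to 154 CPM in knockdown libraries. Most of it was Nr5a2, with means of 110 CPM in control and 99.7 CPM in knockdown libraries. In the same order, Cyp19a1 had means of 27.0 and 25.2 CPM, Kitl 19.9 and 14.5 CPM and Fshr 2.65 and 3.59 CPM. The listed theca and stroma markers summed to at most 6.45 CPM. Of the 4 tested, 3 had a log2 fold change below 0 and 1, Pdgfra, above. Cyp11a1 had 70 and 70 counts in control and 11 and 5 counts in knockdown libraries (edgeR, unadjusted p 0.0449, adjusted p 0.835). Star had 40 and 135 counts against 10 and 20, and Pdgfra 0 and 19 against 52 and 68. The listed blood and endothelial markers summed to 94.0 to 102 CPM. Nearly all of that sum was Pecam1, with means of 100.2 CPM in control and 94.7 CPM in knockdown libraries. Cd68 had means of 0.54 and 2.56 CPM, and the other listed blood and endothelial markers were lower. The part of these differences, and of such cells, in the SNARE values was not tested. The labels do not say whether replicates are separate animals or collections, so the p-values reflect the spread among these samples and no more, which may be technical.

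No SNARE gene passed edgeR's threshold, an adjusted p of 0.05 over all 15868 tested genes, where the share called was 0.0063%. Of the 36 genes 32 passed edgeR's filter on low counts and were tested, and Snap25, Vamp2 and Vamp5 were among those that did not. The largest difference relative to its spread was that of Vamp7, which was about 1.5 times as abundant in the knockdowns. DESeq2 called Vamp7 higher and no other SNARE gene, where it called 1.07% of all genes higher and 0.793% lower, and limma-voom called 0, as it did over all genes (0.0%). Of the 32 genes 18 had a log2 fold change above 0 and 14 below, with a median of 0.02 beside 0.00 for all tested genes. At an unadjusted p under 0.05 edgeR listed 1 SNARE gene higher, Vamp7, and 1 lower, Stx4a, where 2.94% of all tested genes were higher and 2.57% lower at that limit. Both knockdown libraries lay above both controls for 6 of the 32 genes and below them for another 6, and the shares over all tested genes were 18.0% and 16.8%. For 23 of the 32 the 95% interval lay within a 2-fold change in either direction, against 46.7% of all tested genes. The 23 were all among the 26 genes with a mean of at least 10 CPM, a class in which 87.0% of all tested genes had such an interval.

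**Figure D1:**
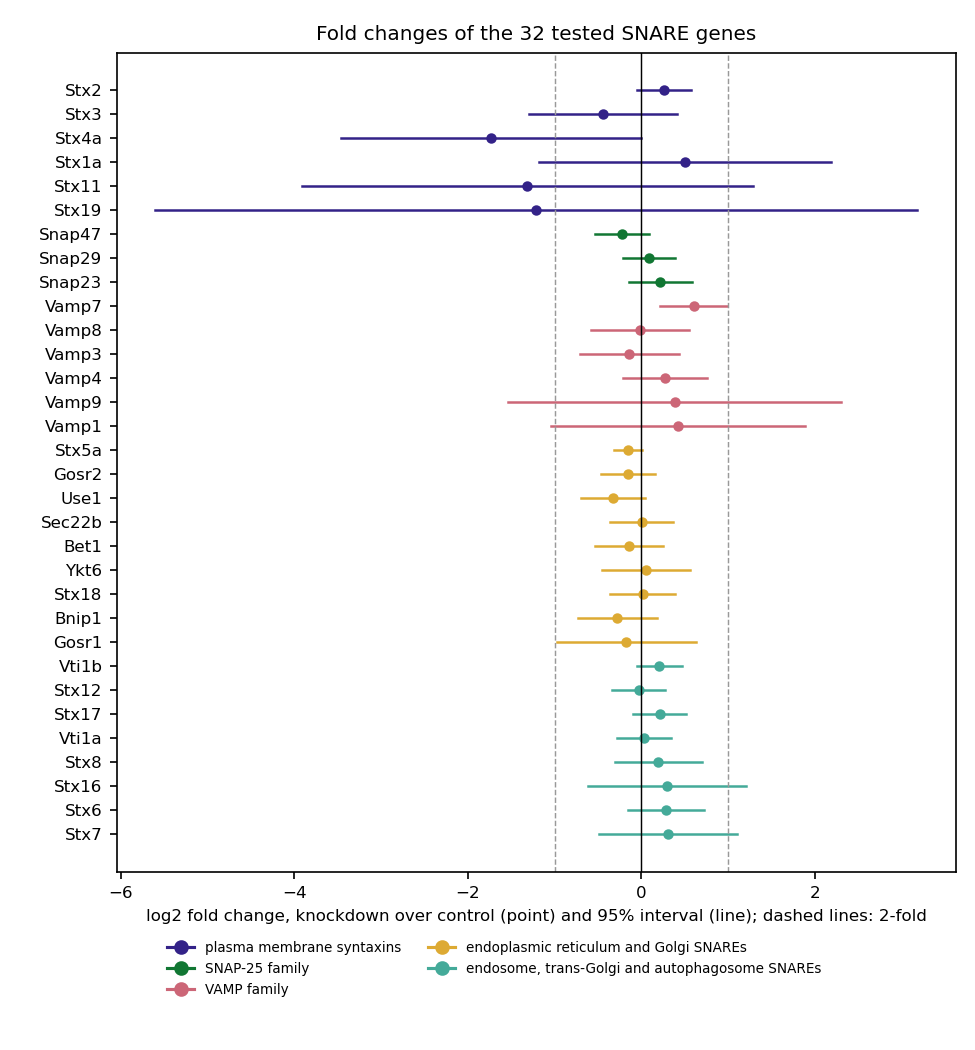
The log2 fold change of each of the 32 tested SNARE genes, knockdown over control (horizontal axis), with its 95% interval as a line, coloured by role. The intervals of 23 genes stay inside the dashed lines that mark a 2-fold change, that of Vamp7 lies above 0, and those of the scarce syntaxins Stx4a, Stx11 and Stx19 are wide.

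The 36 genes together took between 0.180% and 0.194% of the counts of a library. Their summed level was 1797 and 1944 CPM in control and 1843 and 1901 CPM in knockdown libraries, so the groups overlapped. Per kilobase, Stx5a alone took between 14.3% and 16.9% of the summed SNARE level, and the 4 most abundant, Stx5a, Vti1b, Stx12 and Gosr2, took between 43.5% and 45.9%. All 4 act inside the cell, at the Golgi or endosomes. The 26 genes with a mean of at least 10 CPM stood beside 5 between 1 and 10 CPM and 5 under 1 CPM. Among the 21358 genes with any count, ranked by CPM per kilobase, Stx5a was 606th and Vti1b was 760th. In these bulk libraries fewer oocytes with an RNA and less of it per oocyte cannot be told apart.

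**Figure D2:**
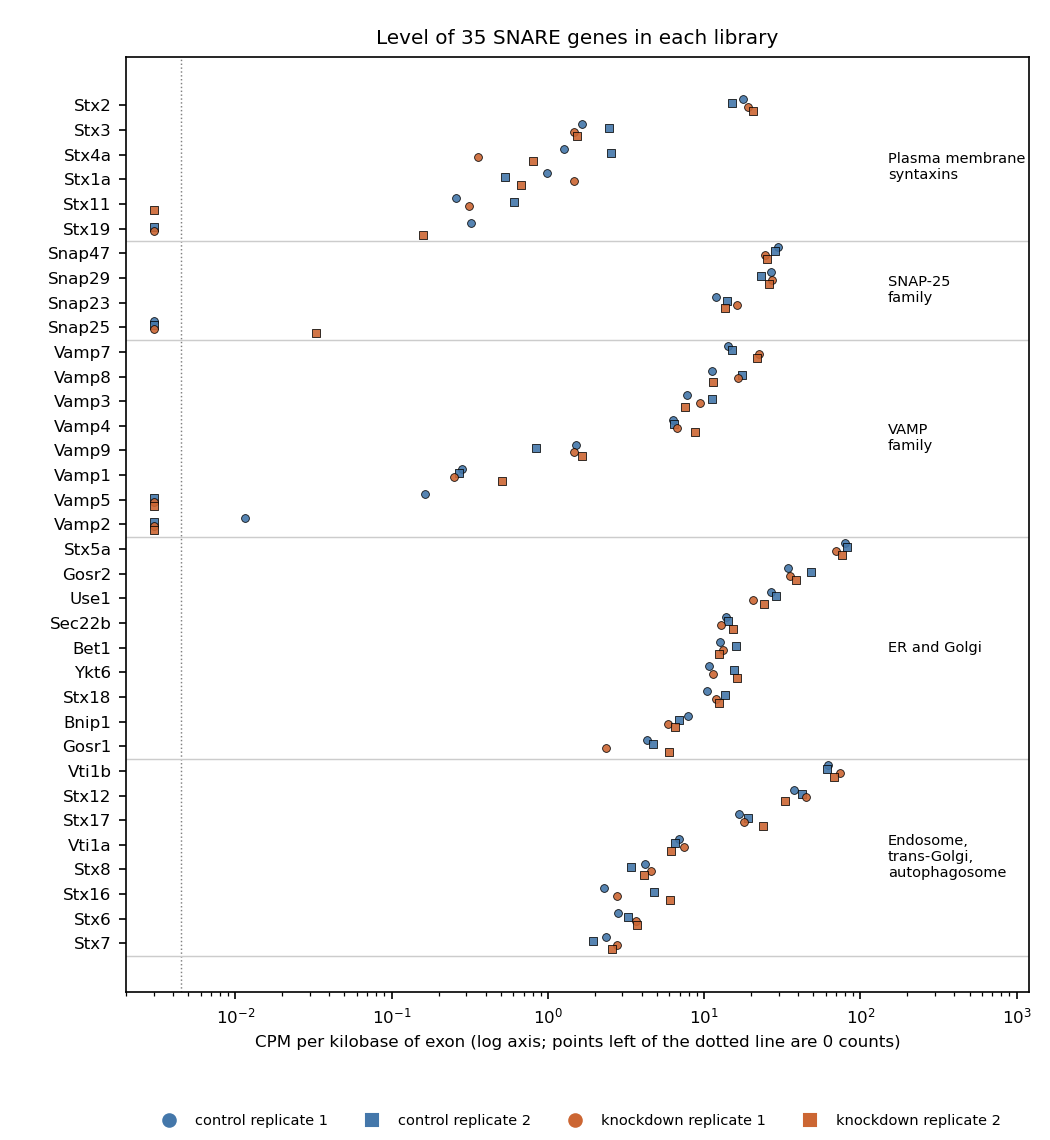
CPM per kilobase of exon (log axis) of 35 of the SNARE genes in each of the 4 libraries, grouped by role and ordered by level within it. Stx5a and Vti1b are highest, while Vamp2, Vamp5 and Snap25 have counts in 1 library each.

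The R-SNAREs of the VAMP family had 8 genes in the table, 6 of them tested, and the log2 fold changes of 4 were above 0 and of 2 below (median 0.33). Vamp7, a longin-domain SNARE of late endosomes and lysosomes, had the highest mean per kilobase of them over the 4 libraries and the smallest p. In the controls alone it was level with Vamp8, at 14.6 and 14.4 CPM per kilobase, and in control replicate 2 Vamp8 took 34.1% of the summed VAMP level against 29.3% for Vamp7. It had 36.0 and 38.0 CPM in control and 57.0 and 55.4 CPM in knockdown libraries. Both knockdown libraries were above both controls, and the libraries of each group lay close together. The level was 37.0 ± 1.44 CPM in control and 56.2 ± 1.16 CPM in knockdown libraries (SD, n = 2), a ratio of means of 1.52 and a log2 fold change of 0.60 (SE 0.18, 95% interval 0.22 to 0.99). Its adjusted p was 0.835 by edgeR's quasi-likelihood test and 0.00245 by DESeq2. Leaving out any 1 library kept the edgeR log2 fold change between 0.58 and 0.63. Vamp7 took between 29.3% and 42.3% of the summed VAMP level per kilobase.

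Vamp7 is annotated on a scaffold of mm10 that has no chromosome assigned, from 10738 to 39148 on its minus strand, with 2534 exonic bases and no overlap with another gene's exons. A processed pseudogene, Vamp7-ps, lies on chromosome 2 from 174046619 to 174047273 and had 32, 0, 2 and 0 counts in control replicates 1 and 2 and knockdown replicates 1 and 2. Sequence shared between Vamp7 and Vamp7-ps was not counted. The other gene of that scaffold with counts was Tmlhe, an enzyme of carnitine synthesis, looked up after the values of Vamp7 were seen. Tmlhe had 89 and 112 counts in control and 185 and 215 counts in knockdown libraries. Its log2 fold change was 1.13 (SE 0.64; edgeR, adjusted p 0.841). Both of its knockdown libraries were also above both controls. Whether the place of Vamp7 and Tmlhe on this scaffold has a part in their values was not tested. Of 15 tested genes on other unplaced or unlocalised scaffolds, 7 had a log2 fold change above 0.

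The other abundant VAMP genes overlapped between groups or differed little. Vamp8, an R-SNARE of late endosomes and autophagosomes, had 25.9 and 40.5 CPM in control and 37.9 and 26.3 CPM in knockdown libraries. Its 2 libraries differed within each group by more than the groups did, and its log2 fold change was -0.02 (95% interval -0.58 to 0.55). Vamp3, or cellubrevin, of recycling endosomes, had 22.3 and 32.5 CPM in control and 27.3 and 21.8 CPM in knockdown libraries and likewise overlapped. Vamp4, of the trans-Golgi network, had 29.0 and 29.2 CPM in control and 30.8 and 40.1 CPM in knockdown libraries, with both knockdown libraries above both controls and a log2 fold change of 0.27 (95% interval -0.22 to 0.75). Vamp1 and Vamp9 had means under 5 CPM in both groups, overlapped, and had intervals of -1.04 to 1.89 and -1.53 to 2.30, which do not exclude a 2-fold change.

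The synaptic Vamp2 and the muscle-enriched Vamp5 were at the limit of detection. Vamp2 had 2 counts in control replicate 1 and 0 in the other 3 libraries. Vamp5 had 20 counts in control replicate 1 and 0 elsewhere. With 0 in both knockdowns and in 1 control each, no fold is given for either. Vamp5 and Vamp8 are neighbours on chromosome 6 of mm10, on the same strand, with 4754 bases between the end of Vamp8 and the start of Vamp5. Their levels lay far apart, at 0.0408 and 14.1 CPM per kilobase over the 4 libraries. The 250 bases before each RefSeq start (GRCm38.p6) are shown because this adjacent pair holds an almost undetected and an abundant member. They are Vamp5 at chr6:72380469-72380718 and Vamp8 at chr6:72390668-72390917, both on the minus strand and written 5′ to 3′, with each CpG dinucleotide in capitals.
Vamp5: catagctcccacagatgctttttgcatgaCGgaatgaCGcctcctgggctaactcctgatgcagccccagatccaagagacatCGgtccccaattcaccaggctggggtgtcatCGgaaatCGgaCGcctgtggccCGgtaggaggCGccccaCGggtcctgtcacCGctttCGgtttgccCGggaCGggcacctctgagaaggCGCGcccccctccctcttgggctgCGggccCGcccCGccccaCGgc
Vamp8: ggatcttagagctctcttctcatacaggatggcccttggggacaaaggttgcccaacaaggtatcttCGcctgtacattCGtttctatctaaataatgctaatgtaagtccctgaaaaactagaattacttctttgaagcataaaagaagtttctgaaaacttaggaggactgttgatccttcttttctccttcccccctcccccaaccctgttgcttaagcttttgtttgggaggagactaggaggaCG
The stretch of Vamp5 holds 19 CpG and is 66.0% G or C, and that of Vamp8 holds 3 and is 43.6% G or C. Of the 32851 RefSeq promoters of the same length 19.7% hold at least 19 CpG and 71.0% hold at least 3. CpG was counted as the letters CG, which read the same on both strands. The almost undetected gene of the pair thus has the CpG-rich stretch.

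Of the plasma membrane syntaxins, the Q-SNAREs that receive vesicles at the cell surface, 6 were tested. The log2 fold changes of 2 were above 0 and of 4 below. Their median was -0.83, and only Stx2 and Stx3 had means of at least 10 CPM. Stx2, or epimorphin, dominated the group, with between 71.1% and 86.6% of its summed level per kilobase. Stx2 had 81.0 and 68.9 CPM in control and 87.3 and 94.1 CPM in knockdown libraries. Both knockdown libraries were above both controls, but the gap between the groups was narrower than that between the controls, with a log2 fold change of 0.26 (SE 0.14, 95% interval -0.05 to 0.58) and an adjusted p of 0.835 by edgeR.

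Stx4a encodes syntaxin 4, a widely expressed surface syntaxin that pairs with SNAP-23. It had 136 and 244 counts in control and 36 and 68 counts in knockdown libraries, or 3.01 and 5.96 CPM in control and 0.846 and 1.90 CPM in knockdown libraries. Both knockdown libraries were below both controls, and the 2 libraries differed about 2-fold within each group. The ratio of means was 0.306, with a log2 fold change of -1.73 (SE 0.80, 95% interval -3.46 to -0.0029) and an unadjusted p of 0.0497. The adjusted p was 0.835 by edgeR and 0.231 by DESeq2, so Stx4a did not pass either test. Leaving out 1 library gave a log2 fold change of Stx4a between -2.38, without knockdown replicate 2, and -1.19, without control replicate 2. Stx4a lies on chromosome 7 from 127824294 to 127849019 on the plus strand.

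Stx3, which acts at the apical surface of epithelia, had 9.51 and 14.1 CPM in control and 8.46 and 8.80 CPM in knockdown libraries, lower in both knockdowns than in both controls, with an interval of -1.30 to 0.41. The neuronal Stx1a had 2.65 and 1.42 CPM in control and 3.90 and 1.79 CPM in knockdown libraries and overlapped. Stx11, known from immune cells, had 49 and 104 counts against 56 and 0, and Stx19 had 41 and 0 against 0 and 16. These last 2 had a nonzero count in 3 and 2 libraries, and their intervals of -3.91 to 1.28 and -5.60 to 3.18 do not exclude a 2-fold change in either direction.

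The SNAP-25 family gives 2 helices to a SNARE bundle from 1 protein, and 3 of its 4 genes were abundant. In the controls Snap47 stood at 29.0 ± 1.01 CPM per kilobase (SD, n = 2) and Snap29 at 24.9 ± 2.49 CPM per kilobase (SD, n = 2). Snap23, the usual surface partner outside neurons, was lower at 13.0 ± 1.43 CPM per kilobase (SD, n = 2). The controls of Snap23 did not overlap those of Snap47 or Snap29. Snap25, the neuronal form, had 0 counts in 3 libraries and 8 in knockdown replicate 2, so no fold is given. None of the 3 tested genes passed the test, and all 3 intervals lay within a 1.5-fold change. Snap47, with the smallest p of the family, had 78.7 and 74.9 CPM in control and 65.0 and 66.9 CPM in knockdown libraries, lower in both knockdowns, with a log2 fold change of -0.22 (SE 0.14, 95% interval -0.54 to 0.09) and an adjusted p of 0.861 by edgeR. Snap29, which serves autophagosome fusion, had 92.0 and 79.9 CPM in control and 94.0 and 89.3 CPM in knockdown libraries, and Snap23 had 51.3 and 59.9 CPM in control and 69.9 and 58.6 CPM in knockdown libraries, and both overlapped. The exons of Snap47 overlap those of Jmjd4 over 11.6% of their length, and the sources used here do not say how such reads were counted.

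The 9 SNAREs of the endoplasmic reticulum and Golgi were all tested, and their log2 fold changes had a median of -0.15, with 3 positive and 6 negative. All 9 intervals lay within a 2-fold change and 6 within a 1.5-fold change. For 3 of the 9, Stx5a, Use1 and Bnip1, both knockdown libraries were below both controls, and for 0 they were both above, beside 16.8% and 18.0% of all tested genes. Stx5a, the syntaxin of transport into and through the Golgi, had 460.1 and 478 CPM in control and 408 and 440.1 CPM in knockdown libraries. Its groups did not overlap, but the difference was small, a log2 fold change of -0.15 (SE 0.08, 95% interval -0.31 to 0.01), and the adjusted p was 0.835 by edgeR and 0.202 by DESeq2. Use1, a Q-SNARE of retrograde transport to the endoplasmic reticulum, had 59.3 and 63.2 CPM in control and 45.1 and 53.3 CPM in knockdown libraries, with a log2 fold change of -0.33 (SE 0.17, 95% interval -0.69 to 0.04) and an adjusted p of 0.835 by edgeR. Bnip1, which acts with Use1, had 40.6 and 35.4 CPM in control and 30.1 and 33.1 CPM in knockdown libraries and a log2 fold change of -0.28 (95% interval -0.73 to 0.18).

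The remaining 6 of this role overlapped between groups. Gosr2, or membrin, had 113 and 158 CPM in control and 117 and 127 CPM in knockdown libraries, and control replicate 2 stood above the other 3 libraries. Sec22b, the R-SNARE of both anterograde and retrograde transport, had 54.7 and 56.2 CPM in control and 51.0 and 61.2 CPM in knockdown libraries, with a log2 fold change of 0.01 (95% interval -0.36 to 0.37). Bet1 had 47.1 and 59.5 CPM in control and 49.4 and 46.8 CPM in knockdown libraries, Ykt6, a lipid-anchored R-SNARE, had 32.2 and 46.7 CPM in control and 34.0 and 48.3 CPM in knockdown libraries, and Stx18 had 48.3 and 62.7 CPM in control and 54.7 and 57.1 CPM in knockdown libraries. In Ykt6 the replicates numbered 2 were higher than those numbered 1 in both groups. Gosr1, a Q-SNARE within the Golgi, varied most between the knockdowns, with 18.5 and 20.2 CPM in control and 10.1 and 25.4 CPM in knockdown libraries. The exons of Stx18 overlap those of Gm42858 and Nsg1 over 32.3% of their length, so its level is uncertain.

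**Figure D3:**
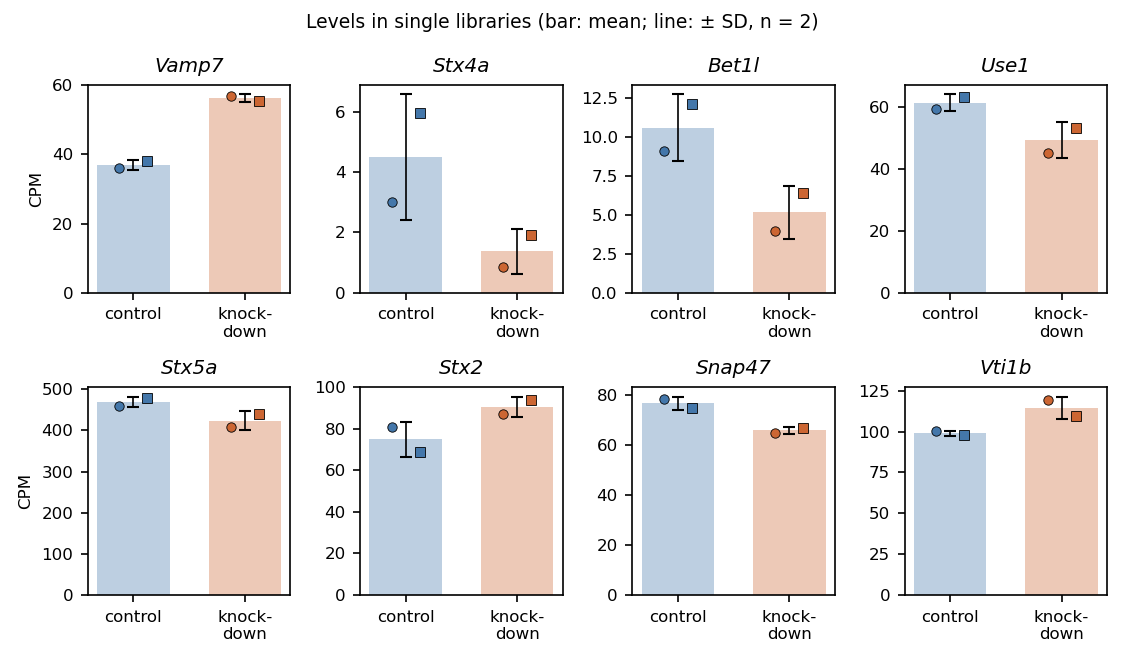
CPM (vertical axis from 0) of 8 genes in each library, with the mean as a bar and the SD of 2 libraries as a line. The groups do not overlap for any of these 8 chosen genes, while they overlap for 20 of the 32 tested SNARE genes. Over all tested genes both knockdowns were above both controls for 18.0% and below them for 16.8%. Vamp7 and Snap47 have the libraries of each group close together, while those of Stx4a and Bet1l are far apart.

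The 8 SNAREs of endosomes, the trans-Golgi network and autophagosomes had log2 fold changes with a median of 0.21, 7 positive and 1 negative. None passed the test, and 6 of 8 intervals lay within a 2-fold change. Vti1b, a Q-SNARE of late endosomes, was the most abundant per kilobase and had the smallest p, with 100.1 and 98.0 CPM in control and 119 and 109.6 CPM in knockdown libraries. Its log2 fold change of 0.21 (SE 0.12, 95% interval -0.05 to 0.47) did not pass the test (edgeR, adjusted p 0.841), and 17.7% of its exonic bases overlap Arg2. Stx12, also called syntaxin 13, of recycling endosomes, had 120.2 and 135 CPM in control and 142 and 105 CPM in knockdown libraries and overlapped. Stx17, the syntaxin of autophagosomes, had 99.98 and 113 CPM in control and 107 and 141 CPM in knockdown libraries, and knockdown replicate 2 alone was above both controls.

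Stx6 and Stx7 had both knockdown libraries above both controls. Stx6, of the trans-Golgi network, had 30.0 and 34.8 CPM in control and 39.2 and 39.9 CPM in knockdown libraries, with a log2 fold change of 0.29 (95% interval -0.15 to 0.73). Stx7, of late endosomes, had 10.6 and 8.74 CPM in control and 12.4 and 11.5 CPM in knockdown libraries, with a log2 fold change of 0.30 (95% interval -0.49 to 1.10). Vti1a had 84.8 and 80.1 CPM in control and 92.0 and 75.6 CPM in knockdown libraries, and Stx8 had 29.8 and 24.3 CPM in control and 32.7 and 29.4 CPM in knockdown libraries, and both overlapped. Stx16 had 9.11 and 19.0 CPM in control and 11.1 and 23.9 CPM in knockdown libraries, so that the replicates within a group differed about 2-fold and the interval of -0.62 to 1.21 did not exclude a 2-fold change.

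Known complexes were used to set partners side by side, by their mean CPM per kilobase in the controls. For the fusion of autophagosomes with lysosomes, Stx17, Snap29 and Vamp8 were close, at 17.9, 24.9 and 14.4, a span of 1.74-fold. The endosome to trans-Golgi set of Stx16, Vti1a, Stx6 and Vamp4 spanned 2.20-fold, from 3.05 for Stx6 to 6.70 for Vti1a. In the late endosome set Vti1b stood 28.5-fold above Stx7, with Stx8 at 3.79 and Vamp8 between them. In the set that acts within the Golgi, Stx5a at 80.8 stood 30.2-fold above Bet1l at 2.68, with Gosr1 at 4.51 and Ykt6 at 13.2. The set for transport from the endoplasmic reticulum to the Golgi spanned 5.79-fold, from Sec22b at 13.9 to Stx5a, and the reverse route spanned 3.74-fold, from Bnip1 at 7.43 to Use1 at 27.8. At the plasma membrane, Snap23 had 13.0 and Vamp3 9.49 CPM per kilobase, Stx4a had 1.90, and Vamp2 was near 0. Stx4a was the only syntaxin of this set, and Stx2, the most abundant plasma membrane syntaxin, stood at 16.3 outside it. Proteins can be shared between complexes and RNA levels do not measure them, so these spans describe RNA only.

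**Figure D4:**
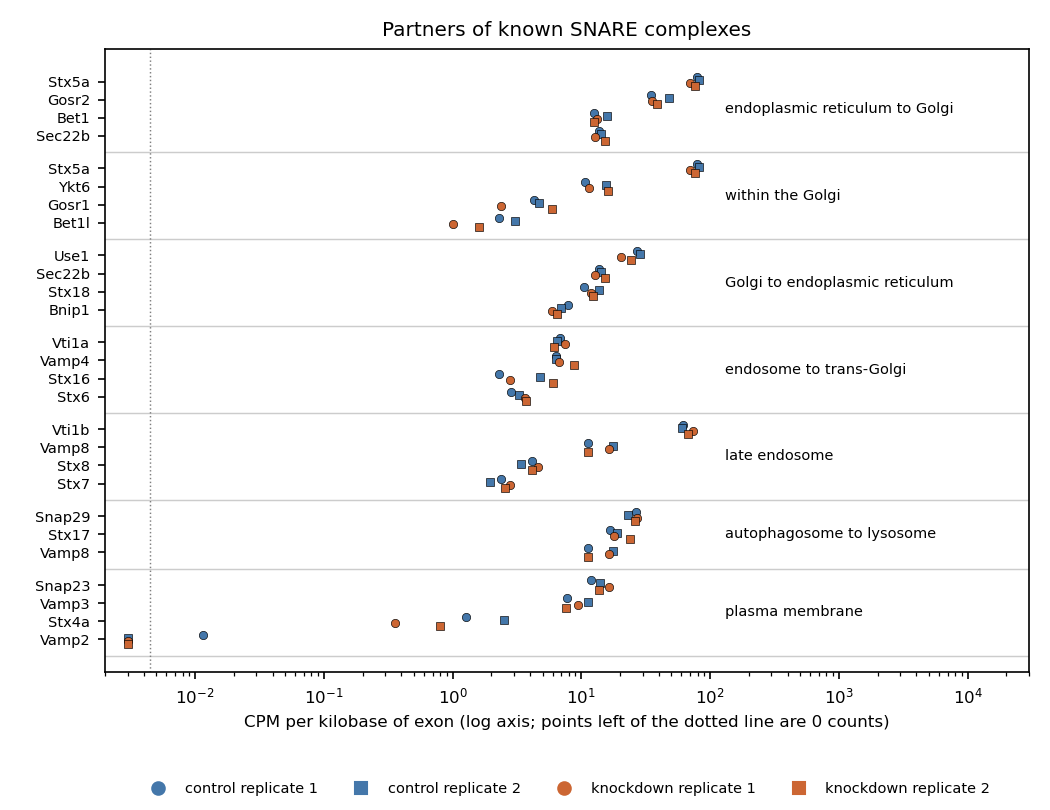
CPM per kilobase of exon (log axis) of the partners of 7 known SNARE complexes in each library, ordered by level within a complex. Partners of the autophagosome set lie together, while Stx5a and Vti1b stand above their partners, and Bet1l and Stx4a are lower in both knockdowns than in both controls.

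The proteins that regulate SNAREs were described from lists of 72 genes, of which 59 were tested. None passed edgeR's threshold in either direction, and DESeq2 called 0. At an unadjusted p under 0.05 edgeR listed 2 of the 59 higher and 3 lower, beside 2.94% and 2.57% of all tested genes. Log2 fold changes were positive for 40 and negative for 19, with a median of 0.11, where 8004 of all 15868 tested genes were positive. Bet1l, a Q-SNARE within the Golgi that the naming rule leaves out, had 410 and 495 counts in control and 169 and 228 counts in knockdown libraries. Both knockdown libraries were below both controls, with a log2 fold change of -1.05 (SE 0.46, 95% interval -2.06 to -0.05) and an adjusted p of 0.835 by edgeR. Of the exonic bases of Bet1l 19.0% overlap Gm45785 or Ric8a, so its level is uncertain.

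The ATPase NSF and its adaptors, which recycle SNAREs, had 4 tested genes, all overlapping between groups, as did 10333 of all 15868 tested genes. Nsf was more abundant per kilobase than any of the 36 SNARE genes, at 102 CPM per kilobase in the controls, and had 803 and 903 CPM in control and 869 and 908 CPM in knockdown libraries, with a log2 fold change of 0.06 (95% interval -0.09 to 0.21). Of the 8 Sec1/Munc18 proteins, which clasp syntaxins, 1 was higher and 1 lower at an unadjusted p under 0.05, the limit that 2.94% and 2.57% of all tested genes passed. Vps33b, with the smallest p of this list, had 47.4 and 40.8 CPM in control and 33.8 and 29.3 CPM in knockdown libraries. Its log2 fold change was -0.48 (edgeR, adjusted p 0.835). Vps45, the partner of Stx16, had 30.8 and 33.3 CPM in control and 40.8 and 47.0 CPM in knockdown libraries, a log2 fold change of 0.45. In both genes the groups did not overlap.

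Calcium sensors and inhibitors of fusion did not pass the test either. Of 17 synaptotagmins 8 were tested, with a median of 0.08, and Syt5 had the smallest p, with 15.6 and 21.3 CPM in control and 22.4 and 25.1 CPM in knockdown libraries. Of 11 SNARE-binding inhibitors and modulators 8 were tested, with a median of 0.19. Stxbp5, or tomosyn, which holds SNAREs in an unproductive bundle, had 74.0 and 52.8 CPM in control and 51.5 and 42.5 CPM in knockdown libraries and a log2 fold change of -0.43 (edgeR, adjusted p 0.835). Its knockdown libraries were both below both controls, and control replicate 1 was the farthest from the rest. Without it the log2 fold change of Stxbp5 was -0.15, and without control replicate 2 it was -0.66. The complexins Cplx2, Cplx3 and Cplx4 had 0 counts in all 4 libraries.

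Tethering complexes, which hold a vesicle near its target before SNAREs engage, had medians between 0.04 and 0.21. In the exocyst, which serves the plasma membrane, 8 of 9 genes were tested, and Exoc6 had 34.3 and 57.0 CPM in control and 26.1 and 32.1 CPM in knockdown libraries, lower in both knockdowns, with a log2 fold change of -0.65 (SE 0.26, 95% interval -1.20 to -0.09) and an adjusted p of 0.835 by edgeR. That log2 fold change of Exoc6 was -0.26 without control replicate 2 and -0.97 without control replicate 1. Cog5, of the Golgi tether COG, had 16.0 and 20.2 CPM in control and 27.9 and 26.4 CPM in knockdown libraries and a log2 fold change of 0.59. Vps54, of the GARP tether of the trans-Golgi network, had 29.5 and 35.1 CPM in control and 45.2 and 41.6 CPM in knockdown libraries and a log2 fold change of 0.43. Both Cog5 and Vps54 were higher in both knockdowns than in both controls, and neither passed the test (edgeR, adjusted p 0.835 for each). Vps18, of the HOPS and CORVET tethers of endosomes, had 12 and 68 counts in control and 48 and 206 counts in knockdown libraries, which overlapped. Its log2 fold change of 1.80 had an interval of -0.48 to 4.08, and it was 0.28 without knockdown replicate 2, 0.98 without control replicate 1, 2.63 without knockdown replicate 1 and 3.58 without control replicate 2.

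**Figure D5:**
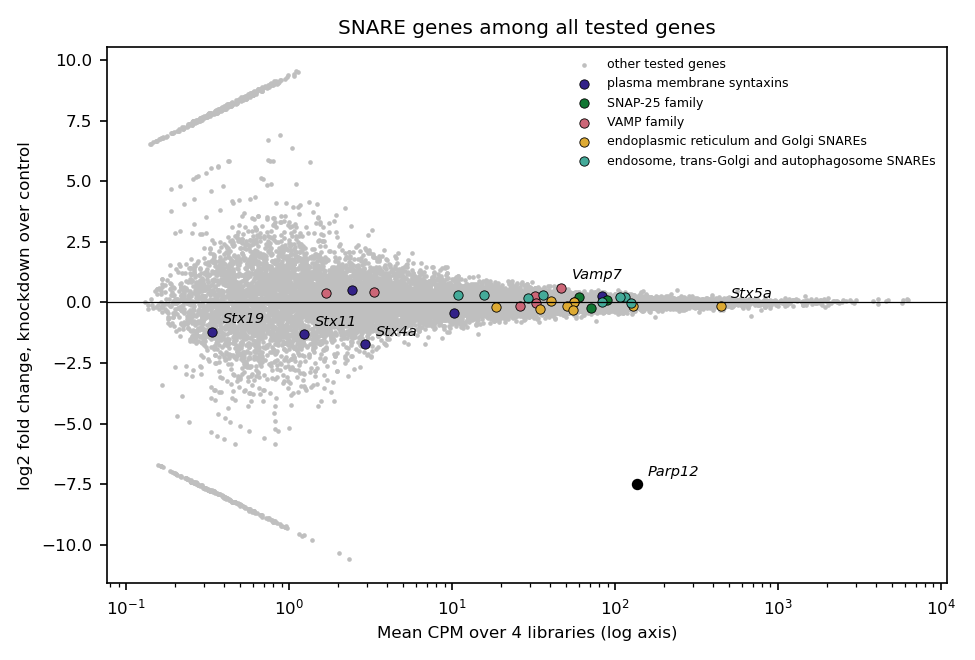
Log2 fold change, knockdown over control, against mean CPM over 4 libraries (log axis) for all 15868 tested genes (grey), with the 32 tested SNARE genes coloured by role and Parp12 in black. The SNARE genes lie within the cloud of genes of like abundance, and Parp12 lies apart at -7.51. Among genes with a mean of at least 10 CPM, the highest SNARE value is 0.60, for Vamp7, and the highest of all is 1.10.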

How the data were processed

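Per the labels' protocols, poly(A) RNA was isolated with magnetic beads and made into Illumina libraries. The table deposited by the authors gives each gene's summed exon length and its unnormalised read counts, which were used unchanged. The submitters' processing notes list mm10 as the build and, as tools, featureCounts 2.0.0, STAR 2.7.5b, Trim Galore 0.6.4 and DESeq2 1.28.1. The strand setting and the treatment of reads with several alignments are not stated there, which limits overlapping genes. All 36 SNARE genes had the same position in GENCODE vM21.

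Counts were tested in R 4.3.3 with edgeR 4.0.16: filterByExpr, TMM factors (0.991 to 1.01), glmQLFit (robust) and glmQLFTest with group as the only term, two-sided, at a Benjamini-Hochberg adjusted p of 0.05 over the 15868 genes that passed the filter. The SE of a log2 fold change came from its F statistic. The tests were first checked on simulated independent counts with genes unchanged or changed 2-fold. Recovery was required of abundant genes only, so the check does not cover scarcer genes or smaller changes. With 2 libraries a group, an exact permutation test over the 6 arrangements cannot go below 0.333, so none is reported. Alternatives were other scaling and filters, DESeq2 1.42.0, edgeR's legacy fit, limma-voom (3.58.1), a replicate block and fits without each library in turn. The members, lists and complexes were chosen with earlier results of these data known. Genes named with full values were Parp12, in each role the most abundant member per kilobase and that with the smallest p, members at 0 in 1 group, and the smallest p of each regulator list, and Bet1l as a SNARE gene outside the naming rule. Other members were named to account for every one, and Vps45 and Tmlhe after their values were seen. The replicate pairs were not copies of 1 library: the chi-square of their counts per degree of freedom was 38.0 for the controls and 32.6 for the knockdowns. The result of 1 member is not reported here.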

Additional observations from a re-analysis of the deposited data

How the results depend on the processing

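Over the 12 alternative settings, 178 of 180 log2 fold changes of the 15 named SNARE and regulator genes kept their direction and their side of the threshold. None of the 15 passed in the main fit, so keeping that side says little. The count also ignores size: the log2 fold change of Vps18 ran from 0.28 to 3.58, and that of Vamp7 from 0.58 to 0.63. DESeq2 called 305 genes in all and 1 SNARE gene, Vamp7, which it listed as higher. Requiring 1 CPM in both libraries of either group gave 8 calls over all genes and limma-voom gave 0, and neither called a SNARE gene. With limma-voom the log2 fold change of Parp12 was -7.73 with an adjusted p of 0.280, and the cause was not tested. Leaving out 1 library at a time gave 1 to 2 calls over all genes, 2 without knockdown replicate 1, and 0 SNARE genes each time. Those fits left the log2 fold change of Nsf between -0.013, without control replicate 1, and 0.13, and the median of the SNARE genes between -0.05 and 0.05. Where a group was left with 1 library, its spread was taken from the other group. With a replicate block the fit called 1 gene over all genes and 0 SNARE or regulator genes, with a SNARE median of 0.02. The deviations of same-numbered libraries had a correlation of 0.0080 over genes. With 1 pair of deviations, this cannot show whether same-numbered samples were collected or prepared together. Chosen after seeing the data, the median was 0.03 without the 3 members whose exons overlap other genes over more than 10% of their length, and 0.01 without Vamp7. Among the scarce members, 0 of the 5 with a mean of 1 to 10 CPM had an interval within a 2-fold change. The part of depth in this was not tested.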

Other observations

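Several genes of the fusion machinery were counted in a single library. Exoc8, an exocyst subunit, had 65 counts in knockdown replicate 2 and 0 in the other libraries. Among the synaptotagmins, Syt6 and Syt17 had 34 and 22 counts in control replicate 1 alone, and Syt10 and Syt12 had 8 and 20 counts in knockdown replicate 2 alone. Vamp5 and Vamp2 were counted in control replicate 1 alone and Snap25 in knockdown replicate 2 alone, as given above. Each of these genes lacked counts in the second library of its own group, and none passed the filter of the edgeR test. DESeq2 tested Exoc8 and did not call it.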
